A study of Mus musculus with 6 samples.

Results

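The Egr, Nr4a and Klf early genes examined here were 10 genes: the zinc finger factors Egr1, Egr2 and Egr3, the orphan nuclear receptors Nr4a1, Nr4a2 and Nr4a3, the Krüppel-like factors Klf2 and Klf4, the nuclear protein gene Ier2 and the phosphatase gene Dusp1. They were taken by name, and every non-control probe whose transcript maps to one of them was used. This gave 14 probes of 56601 tested and 10 genes of 23462 with a named, tested probe. Egr3 had 3 probes, Nr4a2 and Nr4a3 had 2 each, and the other 7 genes had 1 each.

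The measurements were single-colour gene expression arrays of sorted mouse microglia, the resident macrophages of the brain, with 3 samples per genotype. The controls carried Bhlhe41 dTomato-Cre/+ (B41 HET), with 1 intact copy of the gene for the transcriptional repressor Bhlhe41. The knockouts carried Bhlhe41 dTomato-Cre/dTomato-Cre (B41 KO), with no intact copy in any cell of the body. Both groups carried the dTomato and Cre reporter cassette under the Bhlhe41 promoter, at different copy number, and no wild-type mice were on these arrays. The mice were young, 3 months of age in the study's description, and no treatment is named. Cells were enriched on Percoll, and live cells with low CD45 that were positive for CD11b and Cx3cr1 were sorted. The Methods describe each sample as a pool of several mice, whereas the labels speak of N = 3 mice per genotype, so p-values here measure the spread between these 3 samples per group.

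Early genes need no new protein to be switched on, and their transcripts rise within minutes of a stimulus and decay quickly. Growth factor, cytokine and calcium signals reach them through MAP kinases, serum response factor and CREB. The Egr and Nr4a proteins then act on further genes, Klf2 and Klf4 are known for restraining or shaping inflammatory gene expression in macrophages and endothelium, and Dusp1 switches the MAP kinases off again. In microglia these transcripts are also known to be induced when brain tissue is dissociated.

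In B41 KO microglia 4 of the 10 genes were called lower and none was called higher. Klf2 fell to 44.6% of the B41 HET signal, Dusp1 to 46.2%, Egr3 to 48.1% and Klf4 to 67.8%. Egr1 and Ier2 lay at 70.8% and 73.0% with adjusted p-values below 0.05, but their log2 fold changes did not reach the threshold of 0.5. Nr4a1 missed both thresholds narrowly, and Egr2, Nr4a2 and Nr4a3 were not called. A call needed an adjusted p of 0.05 or less, by limma with Benjamini-Hochberg adjustment over all tested probes, and a log2 fold change of at least 0.5 in either direction. A gene was represented by its brightest probe. With replicate number as a block 0 members were called, and slide row was uneven between the genotypes, as set out below.

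By this rule 950 of 23462 genes were called lower, which is 4.05%, and 337 were called higher, which is 1.44%. Calls in either direction made up 5.49% of genes and, counted by probe, 5.09% of probes. With 1 sample left out 796 to 1524 of all probes were called, against 2883 with all samples. Of the 14 member probes 5 were called, all of them lower. The median log2 fold change of the 10 genes was -0.50, against 0.01 over all genes. In bulk samples such as these, fewer cells of a type that carries a transcript and less of that transcript per cell cannot be told apart.

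**Figure D1:**
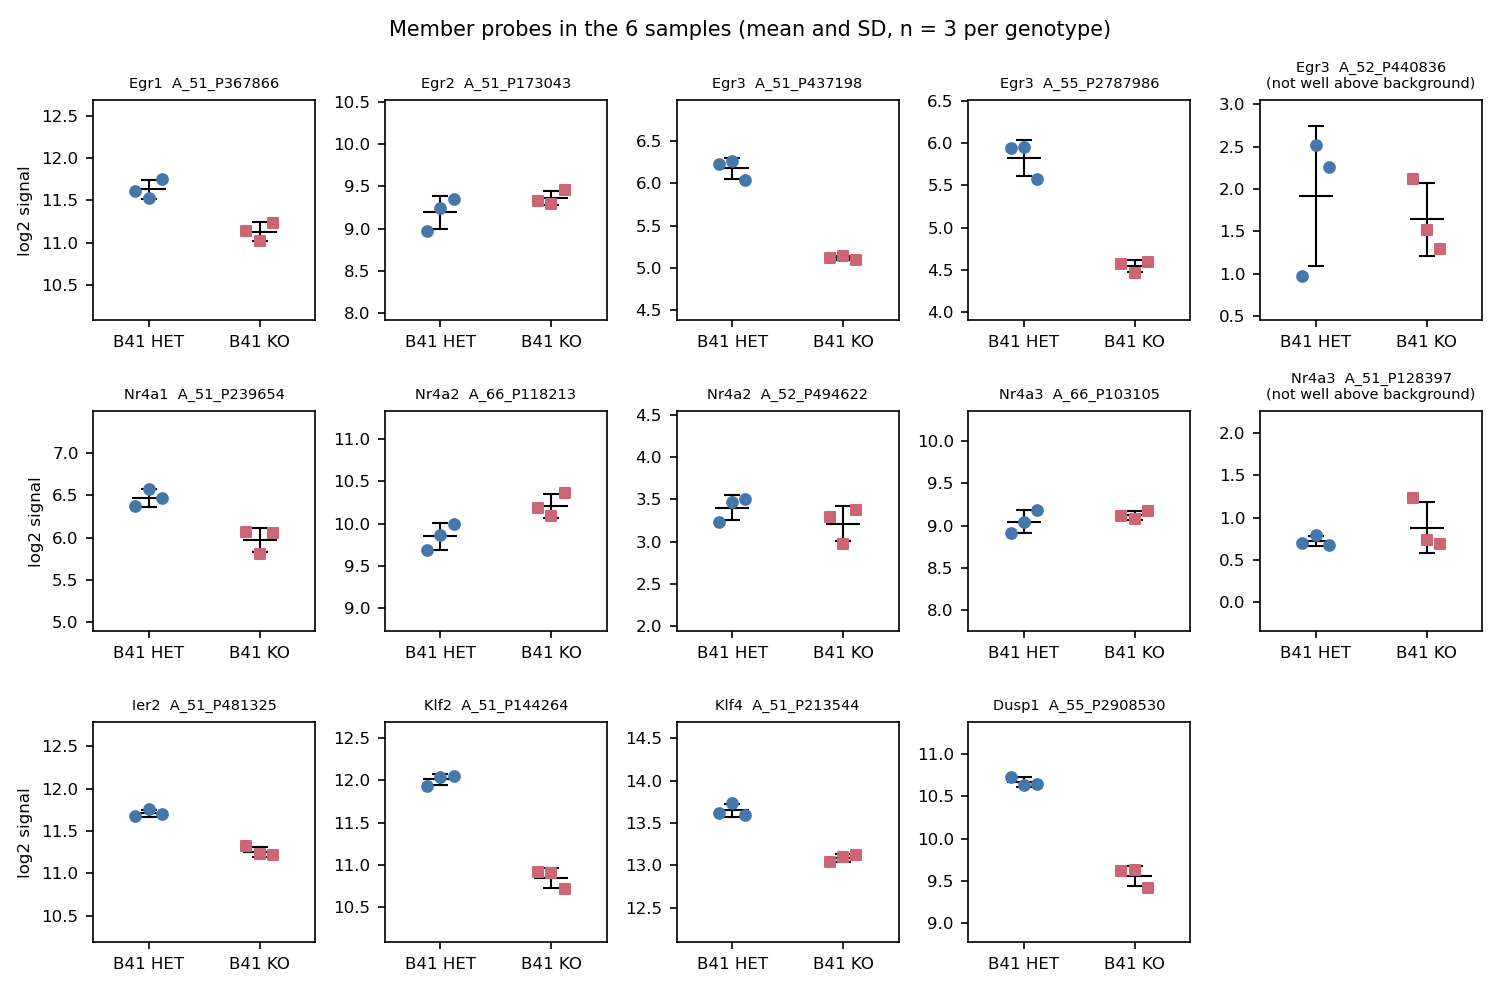
Log2 signal of each of the 14 member probes on the 6 arrays, in 1 panel per probe with a y axis that always spans the same range of log2 units. Blue circles are the B41 HET samples, red squares the B41 KO samples, and the black bars give the mean and SD of 3 samples. On 8 probes every B41 KO sample lies below every B41 HET sample, and for 2 probes no array gave a signal well above background.

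The promoters of the members were set out first, because the arrays compare cells with and without a factor that binds DNA directly. The RefSeq promoter table on GRCm38.p6 held 7 of the 10 members, without Egr1, Egr3 and Ier2. The 250 bases before the start are printed 5′ to 3′ for the 3 called genes it held, and for Nr4a2 as a member that was not lower. Capitals mark every match, on either strand, to the motifs searched, which were the E-box CACGTG that Bhlhe41 is known to bind, the cyclic AMP response element TGACGTCA, its core TGACG, the Egr site GCGNGGGCG, the Nr4a site AAAGGTCA and the CArG box of serum response factor. TGACGTCA holds the core on both strands, so these matches overlap.
Klf2 (chr8:72318812-72319061, plus strand): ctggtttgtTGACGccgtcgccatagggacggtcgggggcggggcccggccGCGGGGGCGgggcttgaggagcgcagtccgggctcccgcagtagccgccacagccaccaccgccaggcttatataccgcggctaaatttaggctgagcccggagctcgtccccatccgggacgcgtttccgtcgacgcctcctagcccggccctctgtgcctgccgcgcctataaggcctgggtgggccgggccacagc
Klf4 (chr4:55532476-55532725, minus strand): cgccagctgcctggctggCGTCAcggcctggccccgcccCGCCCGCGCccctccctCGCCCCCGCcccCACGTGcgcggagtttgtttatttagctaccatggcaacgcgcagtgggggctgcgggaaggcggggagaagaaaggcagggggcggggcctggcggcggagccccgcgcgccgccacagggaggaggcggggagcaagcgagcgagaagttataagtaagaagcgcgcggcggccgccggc
Dusp1 (chr17:26508473-26508722, minus strand): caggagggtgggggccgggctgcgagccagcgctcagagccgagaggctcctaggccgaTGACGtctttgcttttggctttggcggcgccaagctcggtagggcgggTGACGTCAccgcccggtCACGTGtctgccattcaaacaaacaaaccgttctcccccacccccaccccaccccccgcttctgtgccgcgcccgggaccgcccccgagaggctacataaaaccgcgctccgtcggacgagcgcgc
Nr4a2 (chr2:57124004-57124253, minus strand): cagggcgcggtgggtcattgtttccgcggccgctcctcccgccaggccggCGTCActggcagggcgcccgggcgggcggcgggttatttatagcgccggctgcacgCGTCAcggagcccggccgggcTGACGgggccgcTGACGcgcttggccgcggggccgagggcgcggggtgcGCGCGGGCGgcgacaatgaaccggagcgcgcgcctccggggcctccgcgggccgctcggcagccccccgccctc

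The E-box stood 126 to 121 bases before the start of Dusp1 and 182 to 177 bases before that of Klf4. The promoter of Klf2 held none in this window. Egr2 had an E-box before only 1 of its 5 annotated starts. Over all 32851 promoters of this length the E-box occurred in 6.02%.

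The core TGACG was present before at least 1 start of all 7 members, in 9 of their 11 promoters and in 17.8% of all promoters. The full response element was found in Dusp1 and in 1.55% of all promoters. The Egr site occurred in Nr4a1, Nr4a2, Klf2 and Klf4, with 2 sites in Klf4, and in 4.7% of all promoters. The CArG box was found only before Egr2 among the 7, and in 1.47% of promoters, and the Nr4a site in no member and in 1.34% of promoters. The E-box was thus shared by 2 of the 3 called genes with a promoter in the table and by Egr2, which was not called. These matches describe letters in 1 window and no binding was measured.

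The Krüppel-like factors Klf2 and Klf4 are related activators and repressors that bind GC-rich sites. Klf2 measured 11.94, 12.04 and 12.06 on the log2 scale in the 3 B41 HET samples and 10.92, 10.91 and 10.72 in the B41 KO samples. The groups were far apart, with a gap of 1.02 log2 units between the lowest control and the highest knockout. The mean fell from 12.01 ± 0.06 (SD, n = 3) to 10.85 ± 0.12 (SD, n = 3), so that the log2 fold change was -1.16 with an SE of 0.09 and an adjusted p of 0.00450 by limma. Among the brightest probes of all 23462 genes this was rank 241 counted from the largest decrease.

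Klf4, which is also one of the factors used to reprogram cells to pluripotency, measured 13.61, 13.74 and 13.60 in B41 HET and 13.04, 13.10 and 13.13 in B41 KO. Every knockout sample was below every control, with a gap of 0.47. The mean fell from 13.65 ± 0.08 (SD, n = 3) to 13.09 ± 0.05 (SD, n = 3), so that the log2 fold change was -0.56 with an SE of 0.08 and an adjusted p of 0.0173 by limma. Its call was lost with any 1 of the 6 samples left out, where the adjusted p by limma ran from 0.0505 to 0.0728.

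Dusp1 encodes a dual-specificity phosphatase that removes phosphate from p38, JNK and ERK in the nucleus. It measured 10.73, 10.63 and 10.65 in B41 HET and 9.62, 9.63 and 9.42 in B41 KO. The groups did not overlap, and the gap of 1.01 was close to that of Klf2. The mean fell from 10.67 ± 0.05 (SD, n = 3) to 9.56 ± 0.12 (SD, n = 3), so that the log2 fold change was -1.11 with an SE of 0.09 and an adjusted p of 0.00484 by limma. Dusp1 was rank 276 from the largest decrease.

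The Egr proteins are zinc finger activators whose targets include the Nab corepressors that limit them in turn. The brightest Egr3 probe measured 6.23, 6.27 and 6.04 in B41 HET and 5.12, 5.14 and 5.10 in B41 KO. The 3 knockout samples were almost level, and all lay at least 0.90 below the controls. The mean fell from 6.18 ± 0.12 (SD, n = 3) to 5.12 ± 0.02 (SD, n = 3), so that the log2 fold change was -1.06 with an SE of 0.08 and an adjusted p of 0.00505 by limma.

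A second Egr3 probe gave 5.94, 5.95 and 5.58 in B41 HET and 4.57, 4.46 and 4.60 in B41 KO. It was also called, with a log2 fold change of -1.28 and an adjusted p of 0.00772 by limma, and a gap of 0.98. The remaining Egr3 probe was well above background on none of the arrays and is given no fold. The size of its decrease depended on the background correction: with normexp on the median signals the log2 fold changes of the 2 measured probes were -0.52 and -0.54, still called, with adjusted p-values by limma of 0.000576 and 0.00122.

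Egr1 measured 11.61, 11.53 and 11.75 in B41 HET and 11.14, 11.01 and 11.24 in B41 KO. All knockout samples were below all controls, with a gap of 0.30. The means were 11.63 ± 0.11 and 11.13 ± 0.11 (SD, n = 3 each), a difference of -0.499 with a 95% interval of -0.74 to -0.26 and an adjusted p of 0.0428 by limma, so Egr1 passed on p and stayed just short of the fold threshold. With any 1 sample left out the adjusted p by limma was 0.0757 to 0.120, and with normexp on the median signals Egr1 was called at a log2 fold change of -0.55.

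Egr2, by contrast, measured 8.98, 9.25 and 9.35 in B41 HET and 9.32, 9.30 and 9.45 in B41 KO. The groups overlapped, and the lowest value was the first control sample. The log2 difference was 0.17 with a 95% interval of -0.13 to 0.46 and an adjusted p of 0.482 by limma, so the interval excluded a decrease of the size seen for Egr1 or Egr3.

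The Nr4a receptors bind DNA without a known hormone, as monomers or with retinoid X receptors. Nr4a1 measured 6.37, 6.57 and 6.46 in B41 HET and 6.06, 5.81 and 6.05 in B41 KO. The groups did not overlap. The log2 difference was -0.49 with a 95% interval of -0.75 to -0.24, and the adjusted p of 0.0518 by limma and the fold both just missed their thresholds. With normexp on the median signals the difference was -0.26.

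Nr4a2 measured 9.69, 9.86 and 9.998 in B41 HET and 10.19, 10.09 and 10.37 in B41 KO. It was the only member with every knockout sample above every control, by a gap of 0.09. The log2 difference of 0.36 had a 95% interval of 0.07 to 0.66 and an adjusted p of 0.141 by limma, and was not called. The other Nr4a2 probe overlapped between the genotypes, with a difference of -0.19 and a 95% interval of -0.53 to 0.16, so the 2 probes pointed in opposite directions.

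Nr4a3 measured 8.92, 9.05 and 9.19 in B41 HET and 9.12, 9.07 and 9.18 in B41 KO. The knockout values lay inside the range of the controls. The log2 difference was 0.07 with a 95% interval of -0.16 to 0.30 and an adjusted p of 0.704 by limma. The other Nr4a3 probe was well above background on none of the arrays.

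Ier2, a nuclear protein gene induced together with the Egr and Fos genes, measured 11.68, 11.75 and 11.70 in B41 HET and 11.32, 11.23 and 11.21 in B41 KO. The groups were separated by 0.36, and the controls varied little, with an SD of 0.04 (n = 3). The log2 difference was -0.45 with a 95% interval of -0.63 to -0.28 and an adjusted p of 0.0243 by limma. Like Egr1, Ier2 passed on p alone.

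**Figure D2:**
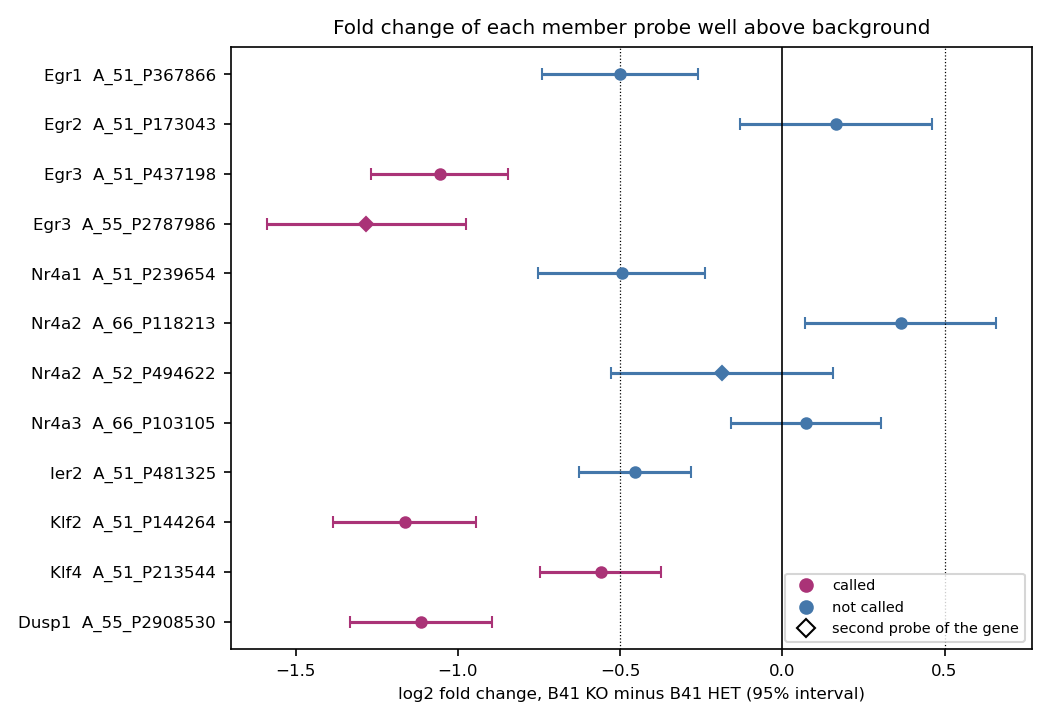
Log2 fold change of B41 KO over B41 HET for the 12 member probes that were well above background, with the 95% interval of the limma fit. Purple marks called and blue not called probes, diamonds a second probe of a gene, and dotted lines the fold threshold of 0.5. Klf2, Dusp1 and both Egr3 probes sit beyond -1, Klf4, Egr1, Nr4a1 and Ier2 lie between -0.56 and -0.45, and Egr2, Nr4a2 and Nr4a3 span or exceed 0.

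By the adjusted p alone 6 of the 10 genes were lower in B41 KO, where 5.49% of all genes were. With any 1 sample left out Egr1, Ier2 and Klf4 had adjusted p-values above 0.05, which leaves Klf2, Dusp1 and Egr3, and the adjusted p of Ier2 by limma was then 0.0608 to 0.0993. The 3 knockout samples were all below the 3 controls for 7 of the 10, where this held for 18.1% of all genes. A two-sided exact permutation test over the 6 samples gave 0.1 for each of these 7 genes and for Nr4a2, which is the smallest p that 3 samples against 3 allow.

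Within each family the members were compared with each other by their log2 ratio on the same array, over all 7 pairs. Each gene was again represented by its brightest probe. The Nr4a1 to Nr4a2 ratio changed by -0.86 from B41 HET to B41 KO, the Nr4a1 to Nr4a3 ratio by -0.57 and the Nr4a2 to Nr4a3 ratio by 0.29. The other Nr4a2 probe, dimmer but well above background on every array, differed by -0.19 where the brightest differed by 0.36. The size of both Nr4a2 ratio changes, and the sign of the Nr4a2 to Nr4a3 change, therefore depend on the probe. The Egr3 to Egr2 ratio changed by -1.22, the Egr1 to Egr2 ratio by -0.67 and the Egr3 to Egr1 ratio by -0.56. The Klf2 to Klf4 ratio changed by -0.60, with a gap of 0.42 between the groups. The genotypes did not overlap in any of the 7 ratios, each with a two-sided exact permutation p of 0.1, the smallest possible here, and 0.1 after Benjamini-Hochberg adjustment over the 7. The sign of each change follows from which gene of the pair is named first. With 3 samples per genotype none of these tests could reach 0.05. With normexp on the median signals, tried after the data were seen, the Egr3 to Egr1 ratio changed by 0.03 and overlapped between the genotypes, with a two-sided exact permutation p of 0.8, so no difference between Egr3 and Egr1 is drawn from it. The Egr3 to Egr2 ratio then changed by -0.62, the Nr4a1 to Nr4a2 ratio by -0.58 and the Nr4a1 to Nr4a3 ratio by -0.33, still without overlap.

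**Figure D3:**
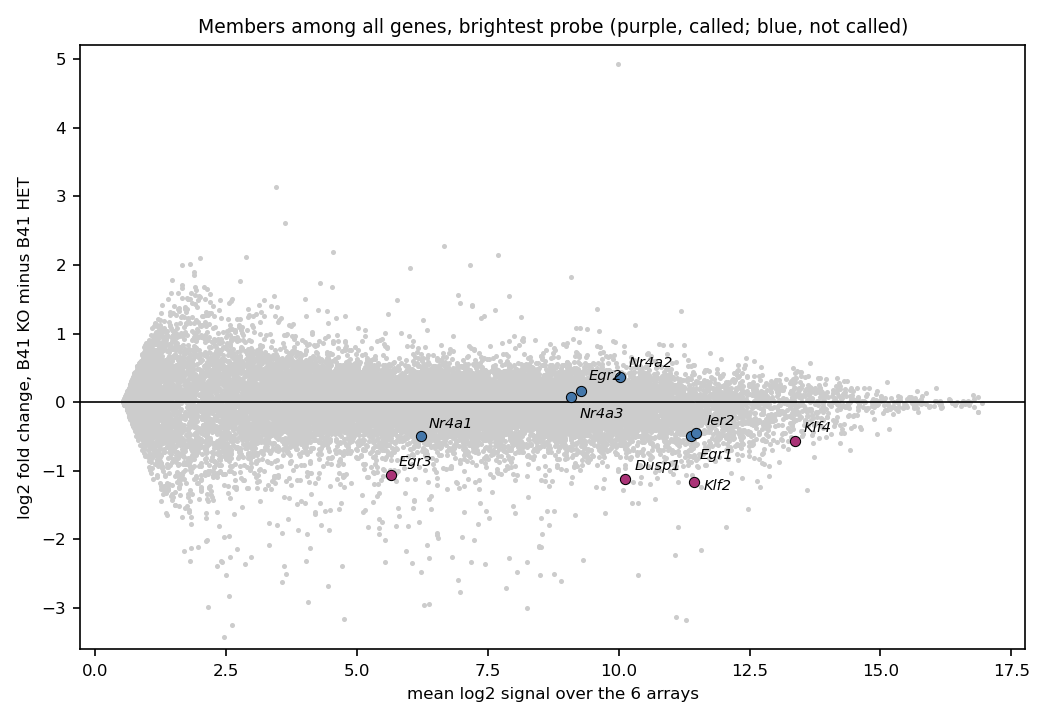
Log2 fold change of B41 KO over B41 HET against the mean log2 signal over the 6 arrays for all 23462 genes, in grey, by their brightest probe. The 10 members are marked, purple where called and blue where not. Klf2, Dusp1 and Egr3 rank 241, 276 and 321 from the largest decrease, in a cloud that reaches down to -3.42. Nr4a2, Egr2 and Nr4a3 lie within the cloud at or above 0.

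The other genes of these pathways were followed in lists of 94 genes, of which 93 had a named probe. Of these 18 were called lower and none higher, where 4.05% of all genes were called lower and 1.44% higher. Other early response genes, given below, made up 13 of the 18. The median log2 fold change of the 93 was -0.20. With transcripts below background left out or set to a bound, the median over 86 genes was also -0.20. With 1 sample left out 7 to 12 pathway genes were called lower, and with replicate number as a block 0. Btg2, Elk4, Nfkbiz and Rps6ka3 were among 6 genes not called by their brightest probe but called on another. On that other probe Btg2, Elk4, Nfkbiz and Rps6ka3 were lower, with log2 fold changes of -0.63, -0.83, -1.42 and -0.58. The brightest Rps6ka3 probe pointed the other way, at 0.36. The counts rest on brightest probes throughout.

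Among related factors and corepressors 3 of 17 were called lower, where 4.05% of all genes were, and the rest were not called. This count was 1 to 3 with any 1 sample left out, 1 with slide row as a block and 0 with the replicate block. These were Klf11 at -1.55, Klf6 at -0.76 and Klf7 at -0.60 on the log2 scale, with adjusted p-values by limma of 0.00437, 0.0152 and 0.0210. Klf11 and Klf6 are induced by transforming growth factor beta and by injury, respectively. Nab2, the corepressor that Egr proteins induce, had 2 probes, of which the brighter differed by -0.01 with an adjusted p of 0.961 by limma and the other was called at -0.55 with an adjusted p of 0.0210. Klf7 was called on its brighter probe and not on another, which differed by -0.29. Egr4 differed by -0.22 with an adjusted p of 0.230.

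Of the 10 other MAP kinase phosphatases only Dusp5, which acts on nuclear ERK, was called, where 5.49% of all genes were called in either direction. Dusp5 was lower by a log2 fold change of -1.32 with an adjusted p of 0.00340 by limma. Dusp2 and Dusp4, with log2 differences of -0.48 and -0.43 and adjusted p-values of 0.0441 and 0.0479 by limma, passed on p and not on fold. With the replicate block none of the list was called. Dusp6, which follows ERK activity in the cytoplasm, differed by -0.09 with an adjusted p of 0.734.

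Among 35 other early response genes 13 were called lower and none higher, where 4.05% of all genes were called lower. This count was 5 to 8 with any 1 sample left out, 2 with slide row as a block and 0 with the replicate block. The list had a median log2 fold change of -0.47, or of -0.40 over 33 genes with 3 set to their bound, and 20 of the 35 had all knockout samples below all controls, as did 18.1% of all genes. The AP-1 genes Fos, Fosb and Jun had log2 fold changes of -0.60, -0.93 and -0.55 and the stress factor Atf3 one of -1.28. Phlda1, Csrnp1 and Gadd45b, the last a stress response gene, had log2 fold changes of -1.86, -1.09 and -0.95. Phlda1 was well above background on only 2 of the 3 B41 KO arrays, so the size of its decrease is uncertain. The RNA-binding protein gene Zfp36l1, the chemokine gene Ccl4, the G-protein regulator Rgs1 and the pseudokinase gene Trib1 had log2 fold changes between -0.69 and -0.61, though a second Zfp36l1 probe, at -0.19, was not called.

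Sik1 and Crem, targets and brakes of CREB, were also called by their brightest probe. Those probes were not well above background on any B41 KO array, so only a bound can be given, at least 1.55-fold higher in B41 HET for Sik1 and at least 1.41-fold for Crem. The bound sets the mean of the controls against the lowest signal well above background on each knockout array. The other 3 Crem probes were not called. Several genes of the list had log2 differences near 0 and were not called, among them Ier3 at -0.05, Nfkbia at -0.04, Ccl3 at -0.04, Mcl1 at -0.02 and Zfp36l2 at 0.04. Fosl2, with a log2 difference of 0.58 and an adjusted p of 0.0546 by limma, had the highest value of the list.

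Of 24 upstream regulators 1 was called lower, a share near the 4.05% of all genes. This was the kinase gene Mapk3, which encodes ERK1. It measured 11.90, 12.06 and 12.06 in B41 HET and 11.52, 11.45 and 11.33 in B41 KO, without overlap. Its log2 fold change was -0.57 with an adjusted p of 0.0253 by limma, and with any 1 sample left out no gene of this list was called. Creb1 differed by -0.04 with an adjusted p of 0.837, and the median of the list was -0.10.

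Of the genes known to depend on Klf2 or Klf4, S1pr1, Thbd and Nos3 were not called, with Thbd well above background on none of the arrays. S1pr1, known to need Klf2 in lymphocytes, had a log2 difference of 0.26 with an adjusted p of 0.277 by limma. Nos3, the endothelial nitric oxide synthase gene, had a log2 difference of -0.88 with an adjusted p of 0.131 by limma. It was well above background on only 2 of the 3 B41 KO arrays. None of the 3 retinoid X receptor genes that pair with Nr4a proteins was called, and their log2 differences ran from -0.16 to 0.22.

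**Figure D4:**
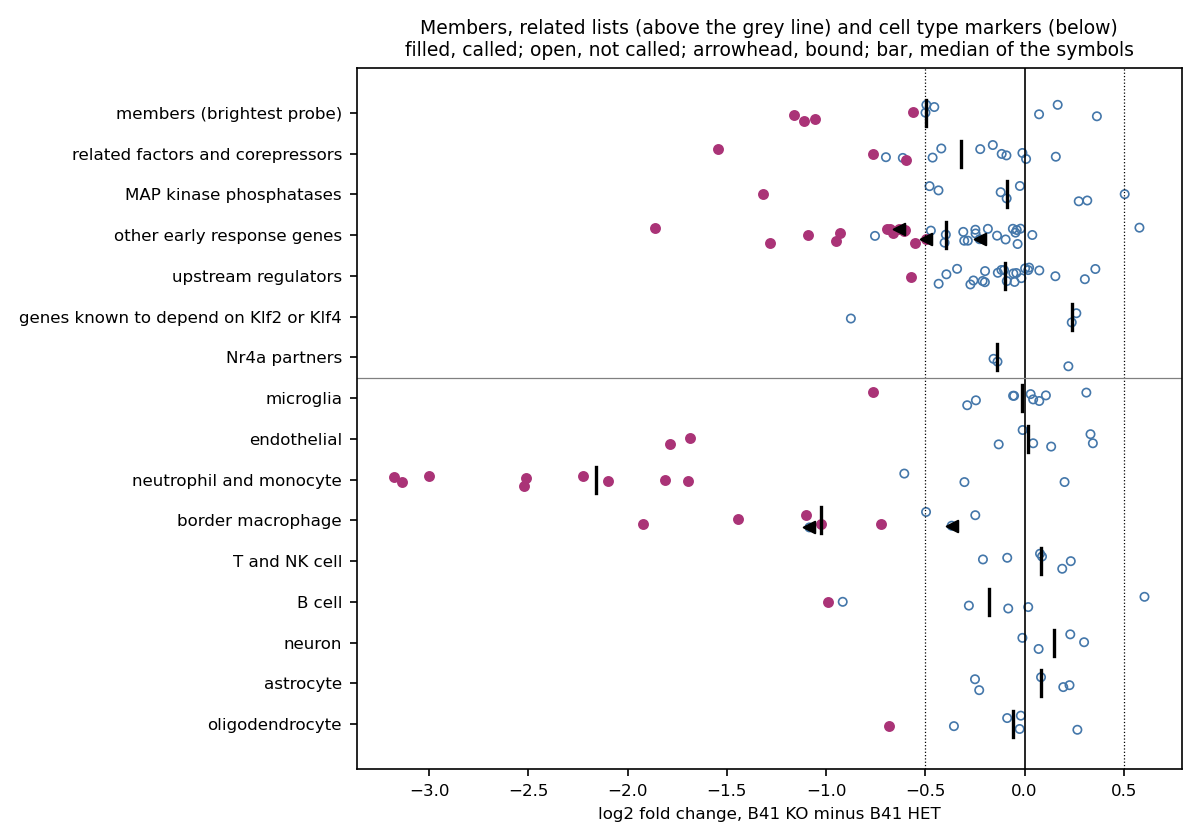
Log2 fold change of B41 KO over B41 HET for the 10 members, 6 related lists and 9 lists of cell type markers, 1 symbol per gene by its brightest probe. Filled symbols were called, open ones were not, arrowheads are bounds for genes not well above background on any B41 KO array, vertical bars are medians of the symbols, and genes well above background on none of the arrays are left out. The members and the other early response genes lie mostly to the left of 0, and the neutrophil and monocyte markers lie farthest to the left.

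Markers of other cells differed between the genotypes as well. Of 12 neutrophil and monocyte markers 9 were called lower, where 4.05% of all genes were. The summed linear signal of the 12 was 31385 to 35296 on the B41 HET arrays and 5907 to 6429 on the B41 KO arrays. For the 9 border macrophage markers the sum was 2512 to 2699 against 1707 to 1894. It came mostly from Stab1, which was not called, at mean log2 signals of 11.07 in B41 HET and 10.57 in B41 KO. Of these 9 markers 5 were called lower, where 4.05% of all genes were. That count was 2 to 4 with any 1 sample left out, 2 with normexp, 1 with slide row as a block and 0 with the replicate block, whereas the 9 neutrophil and monocyte markers stayed at 9 with any 1 sample left out and with slide row as a block and came to 5 with the replicate block. Of 12 endothelial markers Pecam1 and Ly6c1 were called lower, with sums over the list of 1385 to 1456 against 635 to 716. The list had a median log2 fold change of 0.02 with 6 of 12 above 0. Vwf differed by 0.33 and Egfl7 by 0.13, neither of them called. Cldn5 differed by -0.13 with an adjusted p of 0.470 by limma, and Cdh5, Flt1, Tek and Emcn were well above background on none of the arrays. Of the 10 microglia markers Fcrls was called lower, and their sum was 134428 to 149290 against 132920 to 141506. Among T and NK cell, neuron and astrocyte markers none was called, and Cd79a of 7 B cell markers was called lower. The part of these cells in the members' values was not tested.

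All arrays lay on 1 slide, with the 3 B41 HET arrays and the first B41 KO array in the first row and the other 2 B41 KO arrays in the second. With slide row as a block, which sets the controls against that single knockout array, the log2 fold changes were -1.09 for Klf2, -1.05 for Dusp1, -1.05 for Egr3 and -0.61 for Klf4. None was then called, with adjusted p-values by limma of 0.0553, 0.0590, 0.0591 and 0.109. Under the same block Egr1, Ier2 and Nr4a1 stood at -0.49, -0.39 and -0.41 and Nr4a2 at 0.34.

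Outside the blocks, Klf2, Dusp1 and Egr3 kept their calls with any 1 sample left out, where the log2 fold changes ran from -1.20 to -1.10, from -1.15 to -1.04 and from -1.12 to -1.01. Nr4a1 was called when the authors' own table of processed values was used. Nr4a2, Egr2, Nr4a3 and Ier2 were called in no alternative that kept the fold threshold.

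**Figure D5:**
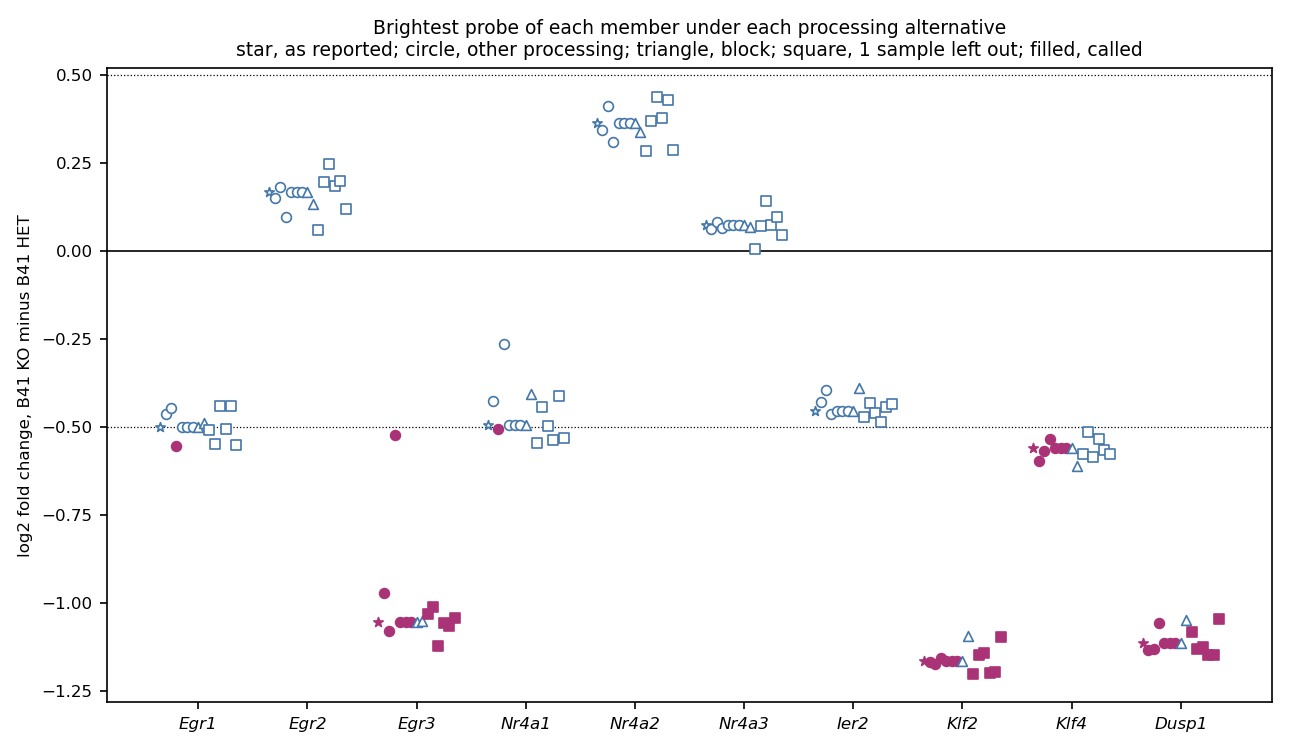
Log2 fold change of B41 KO over B41 HET for the brightest probe of each member, as reported (star), under other processing (circles), with slide row or replicate number as a block (triangles) and with 1 sample left out (squares). Filled symbols were called. No member changes sign, Klf2 and Dusp1 stay near -1.1, and Egr3 moves to -0.52 with normexp.

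The arrays were similar in quality. Between 70.1% and 75.5% of probes were well above background, no spot was saturated, and Pearson correlations across probes were 0.9893 to 0.9928 within and 0.9848 to 0.9890 between the genotypes. The targeted transcript did not check the labels. The cassette is described as ending translation of Bhlhe41, and whether it also ends the transcript before these probes was not tested. The brighter Bhlhe41 probe measured 7.95, 7.87 and 7.65 in B41 HET and 8.56, 7.84 and 8.21 in B41 KO, with an adjusted p of 0.330 by limma. When arrays were scaled to a common 75th percentile instead, the median log2 fold change of all probes was 0.13, against 0.01 as reported, and the values on that scale were -1.17 for Klf2, -1.14 for Dusp1, -0.97 for Egr3 and -0.60 for Klf4.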

How the data were processed

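Per the labels and the Methods, total RNA of sorted microglia was hybridised to Agilent 8x60K mouse arrays in 1 colour and read with Feature Extraction 11.5.1.1. The authors deposited scanner output whose processed intensity is background-subtracted within each array and not normalized between arrays. They also deposited log2 values with equal quantiles on all arrays, which served as an alternative. The log2 processed intensity of non-control spots was quantile normalized over the 6 arrays, 95 to 136 flagged outlier spots per array were then dropped on that array, and spots were averaged per probe. The number of arrays limits the precision.

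Probes were tested with limma 3.58.1 in R 4.3.3 with the package data.table, version 1.17.8. Genotype was the only term and dim probes were kept. A probe needed a value in at least 2 samples per genotype. Names came from unversioned transcript accessions matched to RefSeq genes on GRCm38.p6, for 33767 of 56605 probes (59.7%). The rule named all members and up to 12 called genes of each pathway list, and Jun and the genes cited as not called were added after their values were seen. The members and lists were chosen with earlier results of these data known. The plots used matplotlib 3.10.9 under Python 3.11.15. The test was tried on simulated data first. Single genes of 2 lists are not reported here.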

Additional observations from a re-analysis of the deposited data

How the results depend on the processing

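No member's log2 fold change, by its brightest probe, changed sign under any alternative. The change of the Egr3 to Egr1 ratio went from -0.56 to 0.030 with normexp, an alternative added after the data were seen. The replicate number as a block gave 0 member probes and 0 member genes called, against 5 and 4 as reported, and 0 pathway genes called lower, against 18. Deviations of same-numbered samples correlated at 0.13, -0.01 and 0.17, and those of differently numbered samples at -0.194 to 0.0839. These values do not settle whether the numbers pair the samples, and the fit as reported did not pair them. Slide row as a block gave 0 member probes, 0 member genes and 4 lower pathway genes. With 1 sample left out the pathway genes called lower numbered 7 to 12, member probes 4 and member genes 3. The lowest pathway count, 7, came without the second B41 HET sample and the highest, 12, without the second B41 KO sample. Pathway genes called higher numbered 2 when arrays were scaled by the 75th percentile, and 1 with the authors' processed values, with normexp, with the filter on dim probes and with trended, robust variance, against 0 as reported. The cause of these shifts was not tested. Over all probes 2883 were called, 1501 with normexp, 448 with slide row as a block, 42 with the replicate block, 796 to 1524 with 1 sample left out and 3822 with no fold threshold. Precision was limited by 3 samples per genotype, with SDs of 0.02 to 0.19 log2 units for the members by their brightest probe.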
